A study of Homo sapiens with 36 samples.

Results

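Cal27 cells given interleukin-8 (IL-8) were compared with untreated Cal27 cells, 3 RNA-seq libraries against 3. These are 6 of the 36 libraries of the study, chosen by their labels. Cal27, HN4 and HN6 are established cell lines from squamous carcinomas of the head and neck. Treated cells had received 100 ng per ml of recombinant human IL-8, for 24 h, and the question asked was how lines with more or less of the receptor CXCR1 respond to it. The same 3 lines were also transfected with a plasmid carrying ACLY or with the vector. The groups set beside the comparison were HN4 with IL-8, untreated HN4, HN6 with IL-8, untreated HN6, Cal27 with the ACLY plasmid and Cal27 with the vector, 3 libraries each. All cells were grown in medium with serum depleted of exosomes. The labels number the replicates without saying whether they were separate cultures. The p-values therefore cover only the variation among these libraries, part or all of which may be technical.

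IL-8, the product of CXCL8, is a chemokine that recruits neutrophils and signals through the G protein-coupled receptors CXCR1 and CXCR2. Many squamous carcinoma lines secrete it, usually under control of NF-kB. ACLY, the ATP-citrate lyase that the study ties to IL-8, cuts citrate to give the cytosolic acetyl-CoA used for fatty acid and cholesterol synthesis and for histone acetylation.

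The treated Cal27 libraries held transcripts that untreated HN4 expressed and untreated Cal27 hardly did. There were 17 genes with at least 10 CPM (counts scaled to a fixed library total) in untreated HN4 and at most 0.1 CPM in untreated Cal27 and untreated HN6, and all 17 had reads in each of the 3 treated Cal27 libraries. Their median level relative to untreated HN4 was 0.274, 0.295 and 0.311 in Cal27 with IL-8, and 0 in each untreated Cal27 library, where the choice of genes fixes a value near 0 and 2 to 4 of the 17 had any read. One of them, the chemokine gene CXCL5, stood at 10.85, 11.03 and 5.49 CPM in Cal27 with IL-8, against 0, 0.0549 and 0 CPM in untreated Cal27 and 58.4, 54.97 and 54.6 CPM in untreated HN4. Another, the cancer-testis antigen gene MAGEA1, which has near-identical relatives, had 15.9, 14.5 and 12.2 CPM in Cal27 with IL-8 and none in untreated Cal27. Over 23 genes chosen in the same way as read only in Cal27, the median level relative to untreated Cal27 was 0.607, 0.638 and 0.605 in Cal27 with IL-8, against 1.01, 0.977 and 1.02 in untreated Cal27. For the 11 genes that only HN6 expressed at that level, the median was 0 in every Cal27 library. The median ratio of the HN4-only genes was thus 0.293 ± 0.0186 (SD, n = 3) and that of the Cal27-only genes 0.617 ± 0.0185 (SD, n = 3) in treated Cal27.

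**Figure D1:**
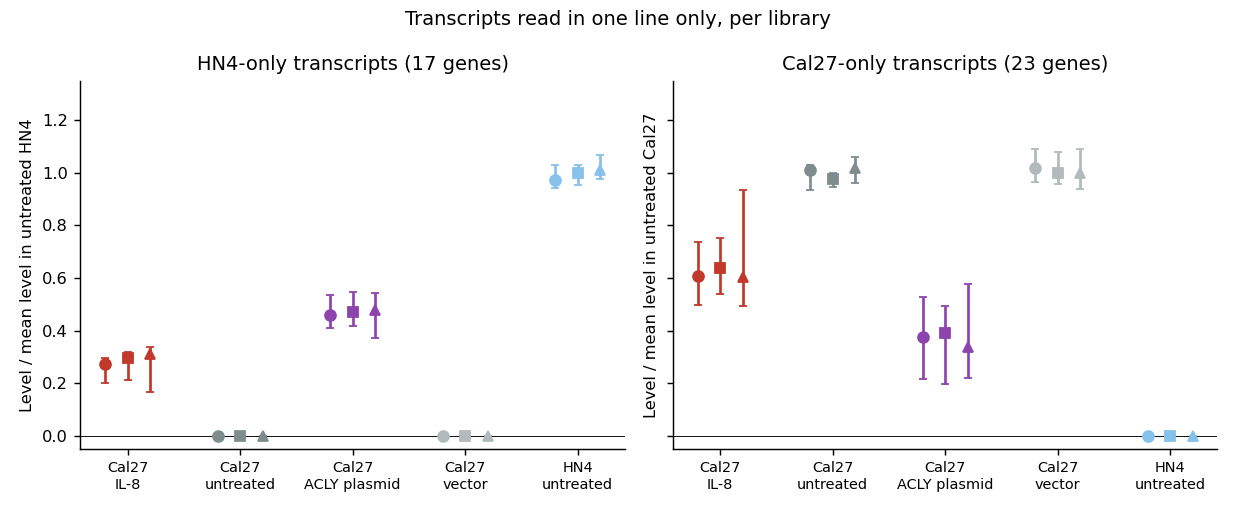
Median level of 17 HN4-only genes relative to untreated HN4 (left) and of 23 Cal27-only genes relative to untreated Cal27 (right), one point per library, circle, square and triangle for replicates 1, 2 and 3, with bars from the lower to the upper quartile over the genes. Cal27 with IL-8 lies at 0.274 to 0.311 on the left and at 0.605 to 0.638 on the right, between untreated Cal27 and untreated HN4 on both sides.

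Where the RNA of a library comes from 2 sources, each gene's share of the counts lies between its shares in the sources, whatever the proportion. A level of treated Cal27 above or below untreated Cal27 and HN4 alike is therefore one that mixing with HN4 in its measured states cannot give, and the results below are ordered by that. A gene was called outside a range when treated Cal27 differed in the same direction from each group of the range. For this the largest of the edgeR quasi-likelihood p-values, adjusted by Benjamini-Hochberg over all 18399 genes tested, had to be under 0.05 both with TMM scaling factors and with library totals alone. Levels are CPM of library totals. Where a mean is given, its error is the SD of the 3 libraries of the group. Fitted log2 changes use TMM factors.

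One treated library stood apart before any of these results. Mitochondrially encoded genes took 3.37%, 3.59% and 1.06% of the counts in Cal27 with IL-8, against 4.55%, 4.72% and 4.83% in untreated Cal27, so replicate 3 was the low one. Over all genes compared, the chi-square per gene was 104 and 107 for treated replicate 3 against treated replicates 1 and 2. It was 2.12 between treated replicates 1 and 2, and 2.92 to 8.44 between untreated Cal27 libraries. The way from untreated Cal27 to untreated HN4 was measured over genes chosen from untreated HN4 and Cal27 with the vector. These genes had at least 10 CPM in the higher group. Genes at least 4-fold lower in HN4 than with the vector had gone a median of 41.1%, 41.5% and 50.8% of the way in treated replicates 1, 2 and 3. Genes at least 4-fold higher in HN4 had gone 26.3%, 25.3% and 20.1%. Counts that turn on replicate 3 are given with and without it, and what part the low mitochondrial share had in them was not tested. Squamous epithelial markers (KRT5, KRT14, TP63, DSG3 and 8 others) summed to 7303 to 8345 CPM in Cal27 with IL-8 and 9618 to 10170 CPM in untreated Cal27, with none at 0 in either group. The 12 fibroblast markers summed to 28.4 to 35.6 CPM in Cal27 with IL-8 and 34.5 to 37.1 CPM in untreated Cal27, with DCN and PDGFRA at 0 in both. Leukocyte and endothelial markers summed to 22.6 to 27.3 CPM in Cal27 with IL-8 and 40.6 to 41.7 CPM in untreated Cal27, and 6 of the 14 were at 0 in both (PTPRC, CD3D, MS4A1, LYZ, FCGR3B and KDR). Library totals ran from 16570601 to 20232735 counts across the study. At that depth a gene without reads may still stand at up to 0.148 to 0.181 CPM (3 counts), which covers counting error only.

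The response of Cal27 as deposited was broad. Of 18399 genes 7247 (39.4%) were called, 4176 higher (22.7%) and 3071 lower (16.7%), and 1820 (9.89%) by at least 2-fold. Of the 7247, 4772 (65.8%) had a treated mean between those of untreated Cal27 and untreated HN4, and 5410 (74.7%) lay within the extremes of untreated Cal27, untreated HN4 and HN4 with IL-8. Only 214 genes (1.16%) passed as outside untreated Cal27 and untreated HN4, 149 above (0.81%) and 65 below (0.353%), and in all 214 the 3 treated Cal27 libraries did not overlap the 6 others. Only 9 (0.0489%) were also outside HN4 with IL-8, and all 9 were higher. The count of 0 lower genes in edgeR stands beside 298 at an unadjusted p under 0.05 on both scalings, 3 with TMM factors alone and 29 in DESeq2. Both counts were higher without any 1 of the treated libraries. They were 612 and 119 without replicate 3, 481 and 40 without replicate 1, and 529 and 71 without replicate 2. Of the 119, 40 and 71 genes outside both HN4 groups in these fits, 30, 7 and 14 were lower. Of the 50 genes described below as outside both untreated lines, 49 stayed so without treated replicate 3, a fit that called more genes. Other fits called fewer. Without untreated Cal27 replicates 1, 2 and 3 the 214 genes were 108, 88 and 79, and without untreated HN4 replicates 1, 2 and 3 they were 104, 105 and 102. HSPA5 was no longer called without any 1 untreated Cal27 library, and MX1 without untreated HN4 replicate 1 or 3.

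**Figure D2:**
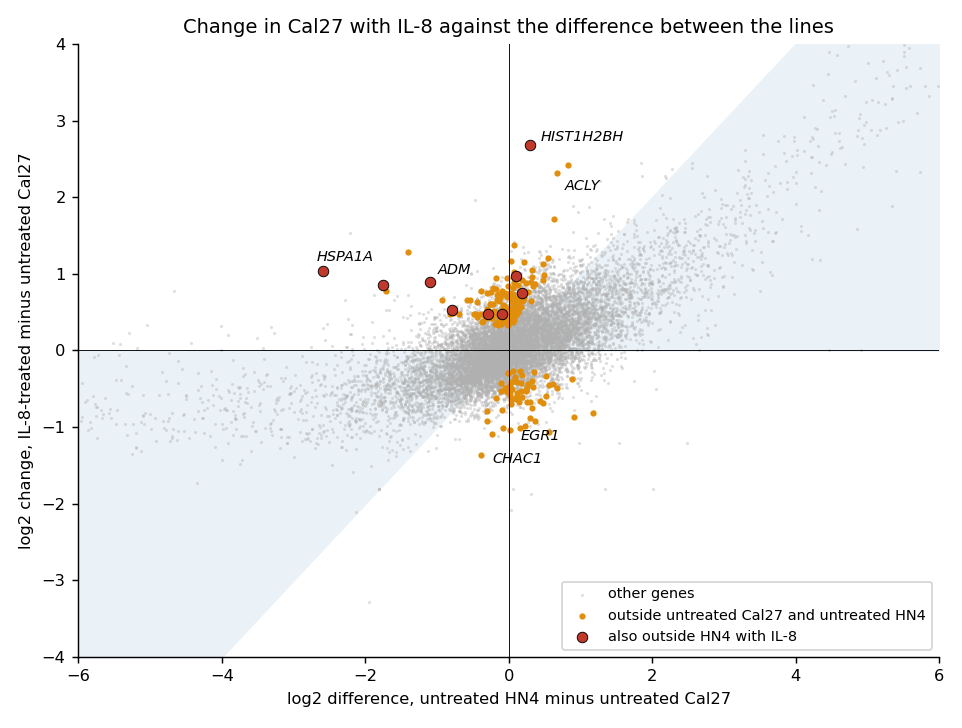
Fitted log2 change of IL-8-treated against untreated Cal27 (vertical axis) plotted against the log2 difference of untreated HN4 from untreated Cal27 (horizontal axis), one point per gene with mean log2 CPM of at least 1. The shaded wedges hold the changes that lie between the 2 untreated lines; the genes called outside them (orange) and the 9 also outside HN4 with IL-8 (red) sit above or below the wedges, most of them where the lines differ little. Of the 13329 genes that qualify, 354 lie beyond the axes and are not drawn.

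The 9 genes above untreated Cal27 and both HN4 groups were 2 histone genes, 3 chaperone genes, the peptide hormone gene ADM, the cytokine gene TNF, the transcription factor gene E2F4 and the splicing gene SNRPA1. HIST1H2BH (chromosome 6, 26251651 to 26253710, hg38), which encodes a histone H2B, stood furthest out. It had 10.3, 9.76 and 7.47 CPM in Cal27 with IL-8, against 1.62, 1.04 and 1.77 CPM in untreated Cal27, 2.05, 1.42 and 1.33 CPM in HN4 with IL-8 and 2.40, 1.65 and 1.25 CPM in untreated HN4. Every treated Cal27 library was thus above all 9 others, with 184, 176 and 132 reads against 19 to 46. Its log2 change was 2.68 ± 0.203 (SE; edgeR adjusted p = 1.67e-08), and its range test had an adjusted p of 2.75e-05 with library totals. HIST2H2BC, an H2B gene of another cluster that the annotation does not list as protein-coding, had 13.3, 13.9 and 10.6 CPM in Cal27 with IL-8 and 5.42, 7.63 and 6.98 CPM in untreated Cal27. It had 4.66 to 5.55 CPM in HN4 with IL-8 and 6.25 to 7.42 CPM in untreated HN4, all below the treated Cal27 libraries.

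HSPA1A and HSPA1B encode the stress-inducible HSP70 chaperones and AHSA1 a co-chaperone that speeds the ATPase of HSP90. HSPA1A (chromosome 6, 31815464 to 31817946) had 231.5, 232.9 and 385.6 CPM in Cal27 with IL-8 and 161.4, 134.5 and 139.2 CPM in untreated Cal27. In HN4 it lay far lower, at 46.3, 49.6 and 47.6 CPM with IL-8 and 23.8, 23.2 and 24.2 CPM untreated, so that mixing with HN4 would lower it. Its log2 change was 1.04 ± 0.166 (SE; edgeR adjusted p = 0.000113), and 0.69 (adjusted p = 1.19e-09) without treated replicate 3, which was the highest. HSPA1B (chromosome 6, 31827735 to 31830255) had 117.8, 126.6 and 110.6 CPM in Cal27 with IL-8, 76.8, 62.6 and 64.3 CPM in untreated Cal27, 33.2, 41.4 and 34.3 CPM in HN4 with IL-8 and 19.2, 19.1 and 21.2 CPM in untreated HN4. For HSPA1B, replicate 3 was the lowest of the treated libraries, and no treated Cal27 library overlapped any other. HSPA1A and HSPA1B are near-identical, and the sources used here do not say how reads matching both were counted, so the split between them is uncertain. AHSA1 had 211.8, 208.5 and 191.7 CPM in Cal27 with IL-8 and 158.4, 149.8 and 150.2 CPM in untreated Cal27. It had 147.6 to 154.5 CPM in HN4 with IL-8 and 122.8 to 123 CPM in untreated HN4, so the 3 treated Cal27 libraries were again above the 9 others.

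ADM encodes adrenomedullin, a vasodilator peptide and a well-known hypoxia-induced gene. ADM (chromosome 11, 10304680 to 10307397) had 95.5, 91.6 and 112.6 CPM in Cal27 with IL-8, 61.4, 52.6 and 54.4 CPM in untreated Cal27, 31.9, 31.1 and 33.98 CPM in HN4 with IL-8 and 25.1, 28.2 and 24.1 CPM in untreated HN4. The 4 groups did not overlap, and treated Cal27 was the highest. Its log2 change was 0.90 ± 0.106 (SE; edgeR adjusted p = 4.58e-06). TNF, the cytokine gene upstream of NF-kB, had 42.7, 45.8 and 46.2 CPM in Cal27 with IL-8 and 30.7, 33.02 and 33.6 CPM in untreated Cal27. HN4 held 9.48 to 10.5 CPM of TNF with IL-8 and 17.4 to 19.4 CPM untreated, so TNF rose in Cal27 where it was lower in treated than in untreated HN4 (log2 changes 0.53 and -0.81, edgeR adjusted p = 0.000123 and 2.05e-05).

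E2F4, an E2F factor that represses cell cycle genes in resting cells, had 157, 164.9 and 144.8 CPM in Cal27 with IL-8 and 124.5, 116.1 and 108.9 CPM in untreated Cal27. HN4 held 107.3 to 115.7 CPM with IL-8 and 106.1 to 108.7 CPM untreated, all below treated Cal27. SNRPA1, which encodes a protein of the U2 spliceosomal particle, had 75.1, 75.7 and 83.5 CPM in Cal27 with IL-8 and 50.1, 47.9 and 47.3 CPM in untreated Cal27. It had 55.7 to 56.9 CPM in HN4 with IL-8 and 52.4 to 55.8 CPM in untreated HN4. HN6 was no part of that range. In untreated HN6 HIST1H2BH averaged 13.5 CPM, AHSA1 385.3 CPM and SNRPA1 87.4 CPM, above treated Cal27. With both HN6 groups added to the range, 1 of the 9 genes was called outside it (ADM). All 9 genes were also outside when Cal27 with the vector, HN4 with the ACLY plasmid and HN4 with the vector were added as sources in a fit of all 36 libraries, which called 68 genes. HIST1H2BH, ADM and HSPA1B were called outside whichever 1 of the 18 libraries was left out. HSPA1A was lost without any 1 of the 3 untreated Cal27 libraries. AHSA1 was lost without any 1 of the HN4 libraries with IL-8 or without untreated Cal27 replicate 2 or 3, and HIST2H2BC without any 1 of the untreated HN4 libraries or without untreated Cal27 replicate 1 or 3. SNRPA1, E2F4 and TNF were lost without any 1 of the untreated Cal27, untreated HN4 or HN4 with IL-8 libraries, in fits that call 3 to 6 genes in all. E2F4 was also lost without any 1 of the HN6 libraries, although HN6 was no part of the range. SNRPA1 was lost without any 1 HN6 library except untreated replicate 2, and TNF without any 1 except replicate 2 with IL-8. Without any 1 of the treated Cal27 libraries all 9 were kept.

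**Figure D3:**
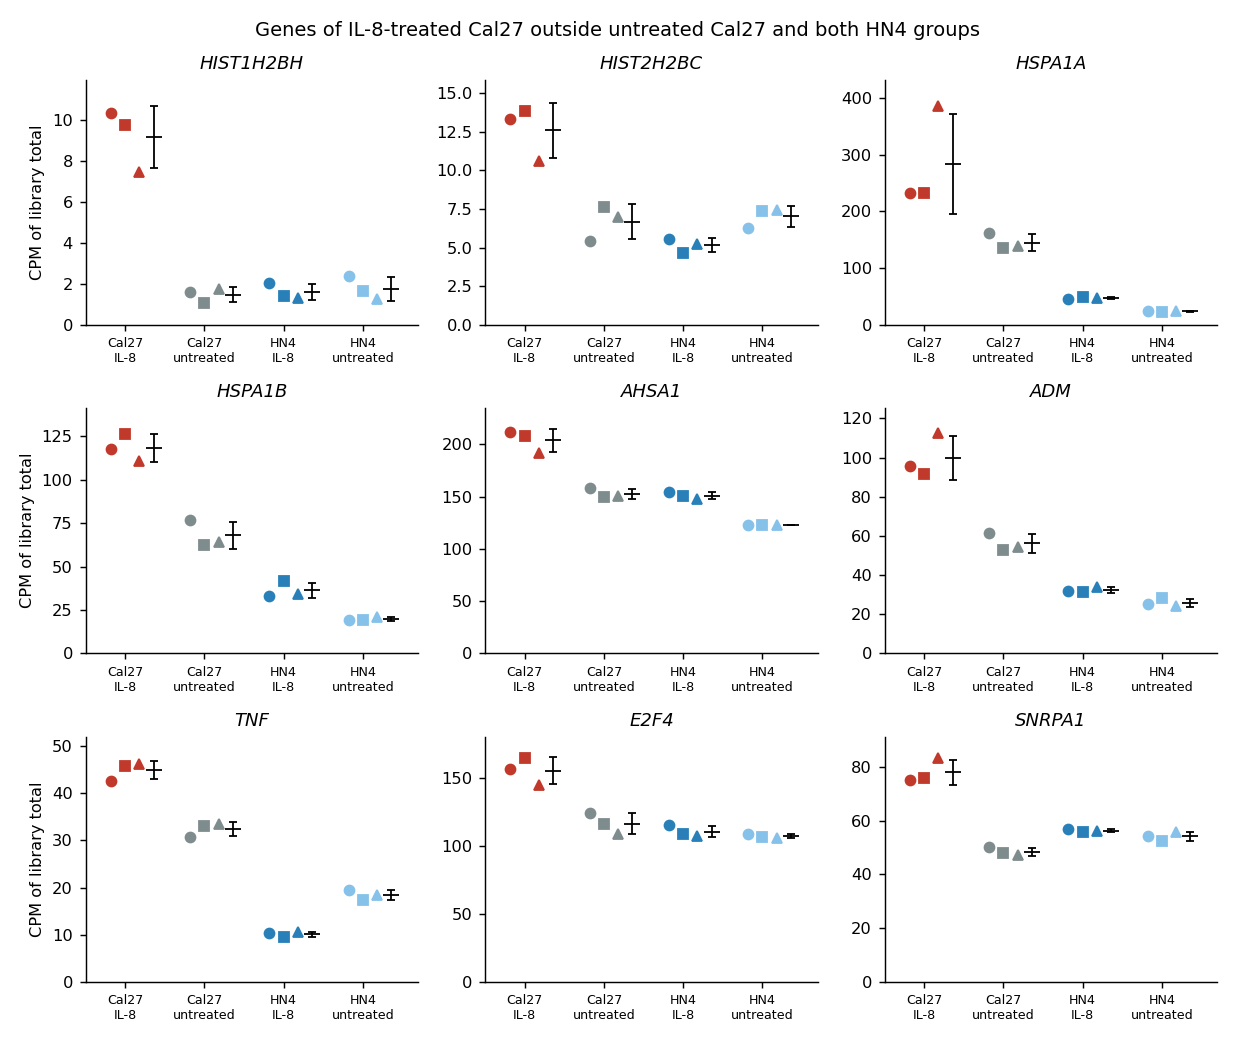
CPM of library totals of the 9 genes called outside untreated Cal27 and both HN4 groups, one point per library (circle, square and triangle for replicates 1, 2 and 3), with the mean and SD (n = 3) in black; each vertical axis starts at 0. In all 9 panels the 3 Cal27 libraries with IL-8 lie above the 9 other libraries, and for HSPA1A replicate 3 (385.6 CPM) lies above replicates 1 and 2 (231.5 and 232.9 CPM).

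The starts of 4 of these genes and of HSPA8, a further chaperone gene called above untreated Cal27 and untreated HN4, are shown because heat shock, hypoxia and histone genes are classically controlled from short elements near the start. RefSeq promoters (GRCh38.p14, 250 bases before to 50 after the start, written 5′ to 3′ on the gene's strand) were found for 8 of the 9 genes. Capitals mark the heat shock element GAANNTTC or TTCNNGAA in the 3 chaperone genes, the hypoxia response core ACGTG or GCGTG in ADM, and the octamer ATTTGCAT in HIST1H2BH, each searched on both strands.
HSPA1A, chr6:31815293-31815592, plus strand: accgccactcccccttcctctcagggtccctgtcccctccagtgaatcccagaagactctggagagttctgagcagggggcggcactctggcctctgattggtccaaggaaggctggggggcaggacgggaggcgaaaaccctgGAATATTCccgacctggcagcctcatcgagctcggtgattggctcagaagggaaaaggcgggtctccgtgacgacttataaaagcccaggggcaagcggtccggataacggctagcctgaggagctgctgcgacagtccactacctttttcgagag
HSPA1B, chr6:31827488-31827787, plus strand: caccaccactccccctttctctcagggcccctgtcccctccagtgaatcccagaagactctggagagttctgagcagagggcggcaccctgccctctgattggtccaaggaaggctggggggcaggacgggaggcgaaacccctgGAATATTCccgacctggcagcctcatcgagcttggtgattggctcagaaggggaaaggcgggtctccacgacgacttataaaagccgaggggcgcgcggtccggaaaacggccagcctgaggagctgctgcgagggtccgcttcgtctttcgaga
HSPA8, chr11:123062087-123062386, minus strand: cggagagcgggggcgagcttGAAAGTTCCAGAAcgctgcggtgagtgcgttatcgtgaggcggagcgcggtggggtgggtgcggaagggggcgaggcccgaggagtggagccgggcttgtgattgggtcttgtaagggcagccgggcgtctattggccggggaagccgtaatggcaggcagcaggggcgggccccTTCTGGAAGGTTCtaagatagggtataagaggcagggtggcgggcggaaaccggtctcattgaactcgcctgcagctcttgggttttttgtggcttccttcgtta
ADM, chr11:10304823-10305122, plus strand: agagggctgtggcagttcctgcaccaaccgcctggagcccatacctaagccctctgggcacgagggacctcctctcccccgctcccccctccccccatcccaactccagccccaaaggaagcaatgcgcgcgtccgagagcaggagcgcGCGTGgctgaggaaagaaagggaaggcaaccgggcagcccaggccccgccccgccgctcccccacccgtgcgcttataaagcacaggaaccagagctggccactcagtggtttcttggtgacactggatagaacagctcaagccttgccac
HIST1H2BH, chr6:26251364-26251663, plus strand: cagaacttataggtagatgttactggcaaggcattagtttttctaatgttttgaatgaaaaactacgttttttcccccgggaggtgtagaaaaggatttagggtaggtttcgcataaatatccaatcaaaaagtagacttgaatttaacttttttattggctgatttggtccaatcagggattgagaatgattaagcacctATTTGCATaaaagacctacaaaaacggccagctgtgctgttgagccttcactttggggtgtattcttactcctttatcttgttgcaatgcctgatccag

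HSPA1A and HSPA1B shared 1 match to the heat shock element and HSPA8 had 4 matches, some of which overlap. Of the 8 promoters found among the 9 chaperone genes outside untreated HN4, 4 (50%) held the element (HSPA1A, HSPA1B, HSPA8 and DNAJA1), against 4737 of 35116 RefSeq promoters in the table (13.5%). The heat shock element also stood in 4 of the 8 promoters of the genes above both HN4 groups (50%). These were E2F4, HSPA1A, HSPA1B and SNRPA1, and not the chaperone gene AHSA1. The hypoxia core stood in 4 of the 8 promoters of the genes above both HN4 groups (ADM, AHSA1, E2F4 and SNRPA1; 50%) and in 48.4% of all promoters. The octamer stood in 1 of the 8, that of HIST1H2BH, and in 1.77% of all promoters. A match describes the letters in this window only.

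Beyond those 9, the largest differences from both untreated lines were in ACLY. ACLY (chromosome 17, 41866908 to 41930542) had 1249, 1279 and 993.7 CPM in Cal27 with IL-8 and 244.3, 248.7 and 240.2 CPM in untreated Cal27, a log2 change of 2.32 ± 0.0643 (SE; edgeR adjusted p = 2.7e-14). Untreated HN4, at 382, 382.5 and 376.1 CPM, lay far below treated Cal27 (edgeR range test, adjusted p = 1.08e-09 with library totals), so mixing with untreated HN4 cannot give this level. HN4 with IL-8 was higher, at 1309, 1337 and 1324 CPM, so ACLY was not outside the range that includes it. The treated Cal27 mean lay 86.2% of the way from untreated Cal27 to HN4 with IL-8, where the HN4-only genes stood at 0.293 of the HN4 level. HN6 held 221.5 ± 1.97 CPM of ACLY with IL-8 and 265.7 ± 3.41 CPM untreated.

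With all libraries, heat shock chaperones were the list with most members above both untreated lines. That order turned when 1 treated library was left out. Without treated replicates 1, 2 and 3 the ribosome biogenesis list described below had 11, 12 and 12 such members, and the chaperones 10, 10 and 11. Of 22 cytosolic chaperone genes 14 rose and 1 fell, where 22.7% of all genes rose, and the median log2 change was 0.47, against 0.004 over all genes tested. 9 of the 22 were above untreated Cal27 and untreated HN4, against 0.81% of all genes, and 3 also above HN4 with IL-8. In HN4 with IL-8 against untreated HN4, 14 of the 22 also rose and 0 fell, where 6.89% of all genes rose. The median log2 change of the list in HN4 was 0.43. HSPA8, which encodes the constitutive HSC70, had 2232, 2236 and 1827 CPM in Cal27 with IL-8, against 1213, 1341 and 1321 CPM in untreated Cal27 and 1510, 1452 and 1413 CPM in untreated HN4. HSPH1, an HSP110 that exchanges the nucleotide of HSP70, had 414.1, 395.4 and 421.5 CPM in Cal27 with IL-8, against 201.3, 226.4 and 220.2 CPM in untreated Cal27 and 306.8, 294.2 and 288.6 CPM in untreated HN4. For both genes HN4 with IL-8 was as high or higher (2269 ± 53.2 and 484.2 ± 13.4 CPM). DNAJA1, a J-domain partner of HSP70, had 324.4, 351.7 and 282.7 CPM in Cal27 with IL-8, 204.5, 220.6 and 229.9 CPM in untreated Cal27 and 260.2 to 278 CPM in HN4 with IL-8. FKBP4, an HSP90 co-chaperone of steroid receptors, had 276.9, 278.8 and 410.5 CPM in Cal27 with IL-8 and 216.2, 208.2 and 228 CPM in untreated Cal27, with 202.4 to 207.3 CPM in HN4 with IL-8. DNAJB1 and HSPA4 rose by 0.47 and 0.40 on the log2 scale (edgeR adjusted p = 0.003 and 0.000187). Without treated replicate 3, which was highest for HSPA1A, FKBP4 and DNAJB1 and lowest for HSPA8 and DNAJA1, 15 of the 22 rose, 1 fell, 11 were outside both untreated lines and 7 also outside HN4 with IL-8.

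**Figure D4:**
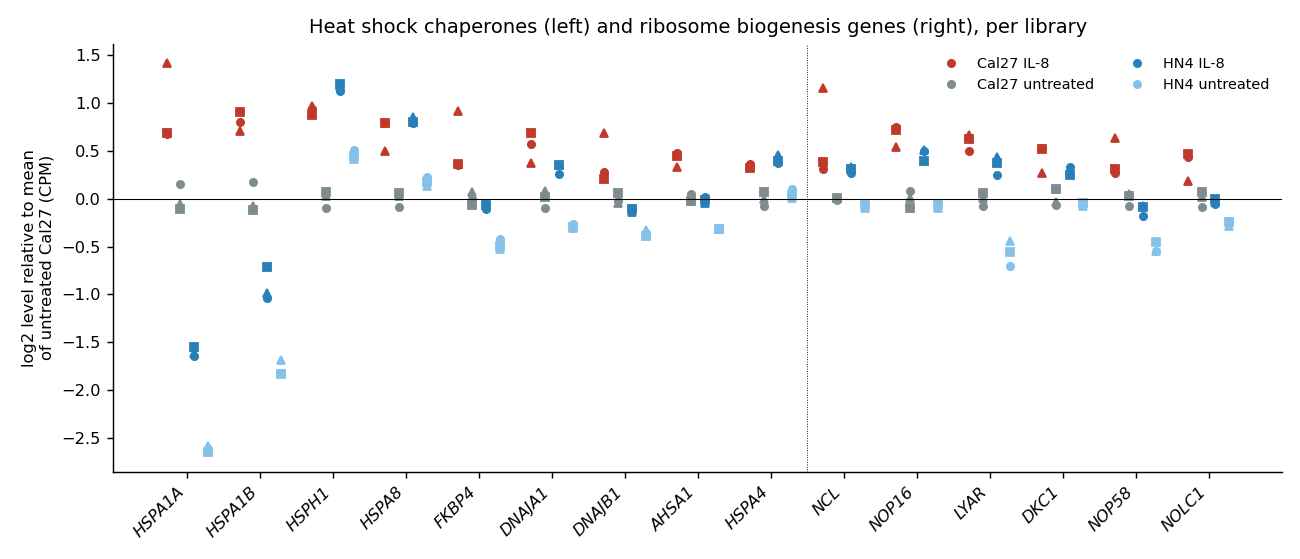
log2 level of the 9 chaperone genes and 6 ribosome biogenesis genes called above untreated Cal27 and untreated HN4, relative to the mean of untreated Cal27 (0), one point per library (circle, square and triangle for replicates 1, 2 and 3). The red points of Cal27 with IL-8 lie above 0 and above untreated HN4 (light blue) for every gene; HN4 with IL-8 (dark blue) passes their mean for HSPH1, HSPA8 and HSPA4 and lies furthest below 0 for HSPA1A and HSPA1B.

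Genes of ribosome biogenesis, many of them MYC targets, rose as a group as well. Of 28 listed genes 22 rose and 0 fell with a median log2 change of 0.49, where 22.7% of all genes rose in Cal27. Above both untreated lines were 6 of the 28, against 0.81% of all genes. In this list 14 rose and 0 fell in HN4 with IL-8 against untreated HN4, where 6.89% of all genes rose. NOP16 had 48.4, 47.5 and 41.7 CPM in Cal27 with IL-8, against 30.6, 26.99 and 28.9 CPM in untreated Cal27 and 27.8, 27.6 and 26.99 CPM in untreated HN4. LYAR, a nucleolar growth regulator, had 35.5, 38.9 and 40.04 CPM in Cal27 with IL-8, 24.03, 26.3 and 25.4 CPM in untreated Cal27 and 15.6, 17.2 and 18.6 CPM in untreated HN4. DKC1, the pseudouridine synthase dyskerin, and NOLC1, its nucleolar chaperone, rose by 0.49 and 0.42 on the log2 scale (edgeR adjusted p = 8.06e-06 and 3.84e-05). NCL, which encodes nucleolin, and NOP58, a box C/D particle protein, were carried further by replicate 3. NCL had 1114, 1174 and 2009 CPM in Cal27 with IL-8 and 888, 905.9 and 905.2 CPM in untreated Cal27, a log2 change of 0.75 that was 0.36 (edgeR adjusted p = 3.12e-09) without replicate 3. Without that replicate 24 of the 28 rose, 1 fell and 12 were outside both untreated lines, against 11 and 12 without replicate 1 or 2.

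Histone cluster genes were grouped after their values were seen, so their count is a description. Of 45 tested genes of the HIST1, HIST2 and HIST3 clusters 24 were called higher and 0 lower, where 22.7% of all genes were higher. Their median log2 change was 1.13. Above both untreated lines were 4 of the 45 (HIST1H2BH, HIST2H2BC, HIST1H3G and HIST1H2BJ), against 0.81% of all genes. HIST1H3G had 3.54, 2.72 and 1.13 CPM in Cal27 with IL-8, 0.279, 0.384 and 0.730 CPM in untreated Cal27 and 0.833, 1.08 and 0.534 CPM in untreated HN4, with replicate 3 near the HN4 libraries. HIST1H2BJ had 2.47, 2.22 and 2.26 CPM in Cal27 with IL-8 and 1.06, 0.549 and 1.56 CPM in untreated Cal27. These are low levels from genes with near-identical coding sequences, most of whose mRNAs lack a poly-A tail, in libraries selected for poly-A.

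Among proliferation genes 1 of 30 DNA replication, 2 of 27 mitosis and 1 of 18 G1 genes were above both untreated lines, where 0.81% of all genes were. For DNA replication the count was 2, 2 and 3 without treated replicates 1, 2 and 3, and for mitosis 3, 3 and 5. Of the 30 DNA replication genes 16 rose and 1 fell, where 22.7% of all genes rose and 16.7% fell. MCM3, a subunit of the replicative helicase, was above both untreated lines. It had 227.9 ± 9.99 CPM in Cal27 with IL-8, 185.9 ± 4.84 CPM in untreated Cal27 and 179.8 ± 1.56 CPM in untreated HN4. Of the 27 mitosis genes 8 rose and 2 fell (12 and 2 without replicate 3), beside the same 22.7% and 16.7% of all genes. In HN4 with IL-8, 26 of the 27 rose, where 6.89% of all genes rose. CCNB1, which encodes the mitotic cyclin B1, had 184.9, 188.3 and 182.5 CPM in Cal27 with IL-8, 138.3, 148.3 and 140.4 CPM in untreated Cal27 and 116.4, 119.3 and 111.6 CPM in untreated HN4, with 221.7 ± 5.4 CPM in HN4 with IL-8. CDC20, an activator of the anaphase-promoting complex, rose by 0.47 on the log2 scale. CCND1, the G1 cyclin D1, had 373, 357 and 421.4 CPM in Cal27 with IL-8, against 218.8, 219.7 and 221.4 CPM in untreated Cal27 and 279, 277.9 and 275.5 CPM in untreated HN4. HN4 with IL-8 stood at 350.1 ± 3.81 CPM, just below the 3 treated Cal27 libraries, and CCND1 was not called outside the range that includes it.

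Among other genes above both untreated lines, ATAD3B, a mitochondrial ATPase gene, POLR3K, a subunit gene of RNA polymerase III, and MIIP had their highest value in replicate 3. ATAD3B had 109, 103.7 and 251.9 CPM in Cal27 with IL-8, 54.99, 46.1 and 49.8 CPM in untreated Cal27 and 75.4, 75.2 and 78.6 CPM in untreated HN4. Its log2 change of 1.71 was 1.09 (edgeR adjusted p = 4.63e-16) without replicate 3. POLR3K had 31.8, 36.7 and 52.8 CPM in Cal27 with IL-8 and 21.2, 21.2 and 20.4 CPM in untreated Cal27, and MIIP 23.8, 24.7 and 48.5 CPM and 19.7, 14.7 and 18.7 CPM. BRICD5 rose by 1.37 on the log2 scale, and by 0.74 (edgeR adjusted p = 0.00215) without replicate 3. SPRR1B, a precursor of the cornified envelope of squamous cells, had 5.34, 4.55 and 3.79 CPM in Cal27 with IL-8, 1.96, 1.15 and 2.66 CPM in untreated Cal27 and at most 1.33 CPM in HN4. IER3, an immediate early gene under NF-kB, had 490.2, 479.9 and 639.5 CPM in Cal27 with IL-8 and 417.9, 413.9 and 381.8 CPM in untreated Cal27, with 201.9 to 259.7 CPM over both HN4 groups. Of 23 NF-kB targets 5 rose (22.7% of all genes did) and 6 fell (16.7% of all genes did), and TNF and IER3 were outside both untreated lines. Without treated replicate 3, 6 rose, 8 fell and 4 were outside, with CSF2 above and PTGS2 below, and 3 of these (TNF, CSF2 and IER3) were also above HN4 with IL-8. PTGS2 was the third member outside without replicate 1 or 2, where 8 and 9 members fell. The interferon-induced genes IFI6 and MX1 rose by 0.77 and 1.21 on the log2 scale, while of 32 such genes 6 rose and 10 fell (4 and 11 without replicate 3). Above both untreated lines were 2 of the 32, but 5 without replicate 2. Below both untreated lines was 1 of the 32, and 0, 1 and 1 without treated replicates 1, 2 and 3.

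The 65 genes below both untreated lines included stress-response and immediate early genes, and HN4 with IL-8 was low in them too. CHAC1, which degrades glutathione and is induced by ATF4, had 12.2, 10.8 and 6.16 CPM in Cal27 with IL-8, 28.4, 24.4 and 24.6 CPM in untreated Cal27, 5.37, 6.08 and 5.32 CPM in HN4 with IL-8 and 19.1, 19.3 and 19.99 CPM in untreated HN4. The treated Cal27 libraries thus lay between the untreated lines and treated HN4 for CHAC1. Of 23 ATF4 target genes 2 rose and 10 fell in Cal27 with IL-8, where 16.7% of all genes fell. In HN4 with IL-8, 2 rose and 11 fell, where 7.07% of all genes fell. CHAC1 and SESN2 were below both untreated lines, as were 0.353% of all genes. Without treated replicates 1, 2 and 3 the list had 3, 3 and 4 such members. SESN2, a sestrin that restrains mTORC1, fell to 32.4 ± 4.57 CPM in Cal27 with IL-8, against 50.3 ± 2.21 CPM in untreated Cal27 and 49.8 ± 3.61 CPM in untreated HN4. EGR1, an immediate early transcription factor gene induced by ERK, had 37.2, 38.5 and 23.6 CPM in Cal27 with IL-8, 74.6, 68.95 and 67.9 CPM in untreated Cal27, 37.1, 35.2 and 35.3 CPM in HN4 with IL-8 and 72.3, 74.7 and 63.3 CPM in untreated HN4. For EGR1 the treated lines overlapped each other and not the untreated ones. JUNB, another immediate early gene, fell by 0.42 on the log2 scale (edgeR adjusted p = 0.00405) but 16 of the 18 fits without 1 library no longer called it outside the range.

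STC1, which encodes the glycoprotein hormone stanniocalcin 1, had 29.6, 30.99 and 15.8 CPM in Cal27 with IL-8, 45.2, 44.98 and 48.3 CPM in untreated Cal27, 57.5, 57.6 and 61.8 CPM in HN4 with IL-8 and 105.4, 104.7 and 97.7 CPM in untreated HN4. Treated Cal27 was thus the lowest of the 4 groups for STC1, with a range test adjusted p of 0.0327 with TMM factors and 0.0667 with library totals, so it was not among the genes called outside HN4 with IL-8. HERPUD1, a component of degradation from the endoplasmic reticulum, had 36.4, 36.1 and 25.2 CPM in Cal27 with IL-8 and 46.4, 45.1 and 44.8 CPM in untreated Cal27, with 43.5 to 72.1 CPM over both HN4 groups. HSPA5, the BiP chaperone of the same compartment, rose to 565.2 ± 10.2 CPM in Cal27 with IL-8, against 465.4 ± 14.2 CPM in untreated Cal27. FOXC2, a forkhead factor gene, stood at 0.506, 0.610 and 0.622 CPM in Cal27 with IL-8, 1.23, 1.26 and 1.30 CPM in untreated Cal27 and 1.21 to 2.08 CPM over both HN4 groups. The remaining large falls were in the homeobox gene DLX4 (-0.99), PLA2G4D, a cytosolic phospholipase A2 gene (-1.02), CARF (-0.89), DZANK1 (-0.93), PIK3IP1, an inhibitor of PI3-kinase (-0.76), and the ataxin gene ATXN1 (-0.78), all as fitted log2 changes with edgeR adjusted p between 0.000106 and 0.00116.

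The IL-8 receptors and ligands did not leave the range of the lines. CXCR1 had 1, 2 and 1 reads in Cal27 with IL-8 and 2, 1 and 1 reads in untreated Cal27, which is at the limit of detection. CXCR2 had 4.10, 3.33 and 3.45 CPM in Cal27 with IL-8, against 7.32, 8.23 and 6.41 CPM in untreated Cal27, 0.0548 to 0.116 CPM in HN4 with IL-8 and 0.0568 to 0.415 CPM in untreated HN4. Its log2 change was -0.96 ± 0.233 (SE; edgeR adjusted p = 0.00375), and the treated mean lay 51.9% of the way to untreated HN4. CXCL8 itself had 404.5, 401.3 and 356.6 CPM in Cal27 with IL-8 and 410.6, 473.7 and 497.6 CPM in untreated Cal27 (log2 change -0.20, edgeR adjusted p = 0.049), a call that 15 of the 18 fits without 1 library lost. CXCL6, another ligand of these receptors, had 3.15, 2.11 and 2.32 CPM in Cal27 with IL-8, 1 read in all in untreated Cal27 and 7.66 to 8.90 CPM in untreated HN4. ACKR3, an atypical chemokine receptor that binds CXCL12, had 21.6, 22.95 and 7.35 CPM in Cal27 with IL-8, 49.8, 50.3 and 49.7 CPM in untreated Cal27 and at most 0.170 CPM in HN4.

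The genes with the largest rises and falls among those inside the range of the lines follow. SLC20A2, a phosphate transporter gene, had 27.2, 29.7 and 19.7 CPM in Cal27 with IL-8, 0 reads in untreated Cal27 and 102.6 ± 1.15 CPM in untreated HN4. MAGED1 had 15.4, 16.02 and 17.8 CPM in Cal27 with IL-8, 0 reads in untreated Cal27 and 55.9 ± 2.76 CPM in untreated HN4. MAGEA12, with near-identical relatives, and GLB1L2 had the same form, with treated means 38.3% and 33.1% of the way to untreated HN4. The membrane mucin gene MUC16 had 35.6, 40.7 and 10.2 CPM in Cal27 with IL-8, 86.95, 101.5 and 104 CPM in untreated Cal27 and 4.71 ± 0.217 CPM in untreated HN4. PDLIM3 and PPFIA4 fell by 1.60 and 1.58 on the log2 scale and lay 68.4% and 86.7% of the way to untreated HN4. SERF1B fell by 3.28 on the log2 scale, but it has a near-identical copy and spread from 7.13 to 17.1 CPM in untreated Cal27. TP63, the lineage factor of squamous cells, had 388.3, 367.4 and 260.1 CPM in Cal27 with IL-8, 593.1, 649.3 and 628.2 CPM in untreated Cal27 and 204.4 ± 5.14 CPM in untreated HN4. Of 12 squamous markers 1 rose and 7 fell (3 rose and 8 fell without treated replicate 1 or 2). The p53 targets MDM2 (138.1 ± 7.08 CPM in Cal27 with IL-8 and 43.4 ± 5.38 CPM in untreated Cal27) and CDKN1A (169.2 ± 17 CPM and 71.5 ± 2.28 CPM) lay 32.8% and 28.3% of the way to untreated HN4. Of 21 p53 targets 10 rose and 0 fell (edgeR; 2 fell without replicate 3), and 0 were outside the range with or without that replicate. Of 22 hypoxia-induced genes 18 fell and 2 rose (17 and 1 without replicate 3), with a median log2 change of -0.58, and ADM was outside the range, on the opposite side. Without any 1 of the treated libraries VEGFA was a further member outside it, below both untreated lines. Beside these list counts, 22.7% of all genes rose and 16.7% fell in Cal27 with IL-8. In HN4 with IL-8, 15 of the 22 hypoxia-induced genes fell and 1 rose, where 7.07% of all genes fell. Their median log2 change in HN4 was -0.45.

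The mitochondrially encoded mRNAs passed no range test with all libraries, and did so when 1 treated library was left out. Of 13 such mRNAs 5 fell and 0 rose, where 16.7% of all genes fell. The median of the 13 was 1.04 below untreated HN4 on the log2 scale. Without treated replicates 1, 2 and 3 the number that fell was 6, 6 and 9, and the number below both untreated lines 2, 3 and 4, against 0 with all libraries. MT-CO1 had 8033, 8157 and 2665 CPM in Cal27 with IL-8, against 13490, 14170 and 14220 CPM in untreated Cal27 and 12290 ± 117 CPM in untreated HN4. Its range test had an adjusted p of 0.0397 with TMM factors and 0.0622 with library totals, so it was not called with all libraries. Without any 1 of the treated libraries MT-CO1 was called below both untreated lines, and without replicate 3 also below HN4 with IL-8 (log2 change -0.77, edgeR adjusted p = 3.91e-17).

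In HN6 many of the same genes went the other way. Over all genes the response of Cal27 differed from that of HN6 in 30.3% (edgeR interaction, adjusted p under 0.05), with 3294 genes higher and 2274 lower. With library totals in place of TMM factors 2580 were higher and 2795 lower, so the side with more genes turned with the scaling. With IL-8, 75 of the 214 genes outside both untreated lines were called in the opposite direction in HN6 and 4 in the same direction, where 7.64% of all genes rose and 7.83% fell in HN6. In HN4, by contrast, the fitted IL-8 change had the same sign as in Cal27 for 200 of the 214 (93.5%), called or not. The untreated HN4 libraries also served to choose the 214 genes. Of the 22 chaperones 11 fell and 0 rose in HN6 with IL-8, and of the 28 ribosome biogenesis genes 13 fell and 0 rose (8 and 8 fell with library totals). HSPA8 stood at 1801 CPM in HN6 with IL-8 and 2784 CPM in untreated HN6, and the change in Cal27 exceeded that in HN6 by 1.43 on the log2 scale (edgeR adjusted p = 5.05e-09). TNF stood at 9.76 CPM in HN6 with IL-8 and 22.2 CPM in untreated HN6, a difference of responses of 1.76 (edgeR adjusted p = 1.53e-08). CHAC1 stood at 8.31 CPM in HN6 with IL-8 and 1.15 CPM in untreated HN6, a difference of -4.17 (edgeR adjusted p = 1.94e-09). Of the ATF4 targets 14 rose and 2 fell in HN6, and of the hypoxia-induced genes 12 rose and 0 fell.

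The genes outside the HN4 range in Cal27 with IL-8 moved the same way in Cal27 with the ACLY plasmid, a comparison that shares no library with the IL-8 one. Of the 214 genes 209 (97.7%) were called in the same direction against the vector, 148 of them higher and 61 lower, where 57.7% of 19350 genes were called, 31.3% higher and 26.4% lower. Over those 19350 genes the 2 sets of log2 changes had a Pearson correlation of 0.882, given as a description across genes, which are not independent replicates. The HN4-only transcripts were also read there, at 0.46, 0.47 and 0.48 of the untreated HN4 level with the plasmid and 0 with the vector, and the Cal27-only genes stood at 0.375, 0.39 and 0.337 of untreated Cal27. The rise of the 9 genes with IL-8 came to 48.6% to 92.1% of the rise with the plasmid, with a median of 62%, that of ACLY to 56.9%, and the median ratio of the HN4-only genes to 62.3% of its value with the plasmid. HIST1H2BH averaged 13.9 CPM with the plasmid and 1.46 CPM with the vector, and ADM 114.7 CPM with the plasmid and 56.8 CPM with the vector. When Cal27 with the ACLY plasmid was added as a source, 0 genes were outside the range of untreated Cal27 and untreated HN4 and 0 outside the range that also has HN4 with IL-8 (edgeR, all 36 libraries; 205 and 186 genes at an unadjusted p under 0.05). Whether RNA of HN4 or of Cal27 with the plasmid was in the IL-8 libraries was not tested, and the changes set out here cannot be told apart from that.

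**Figure D5:**
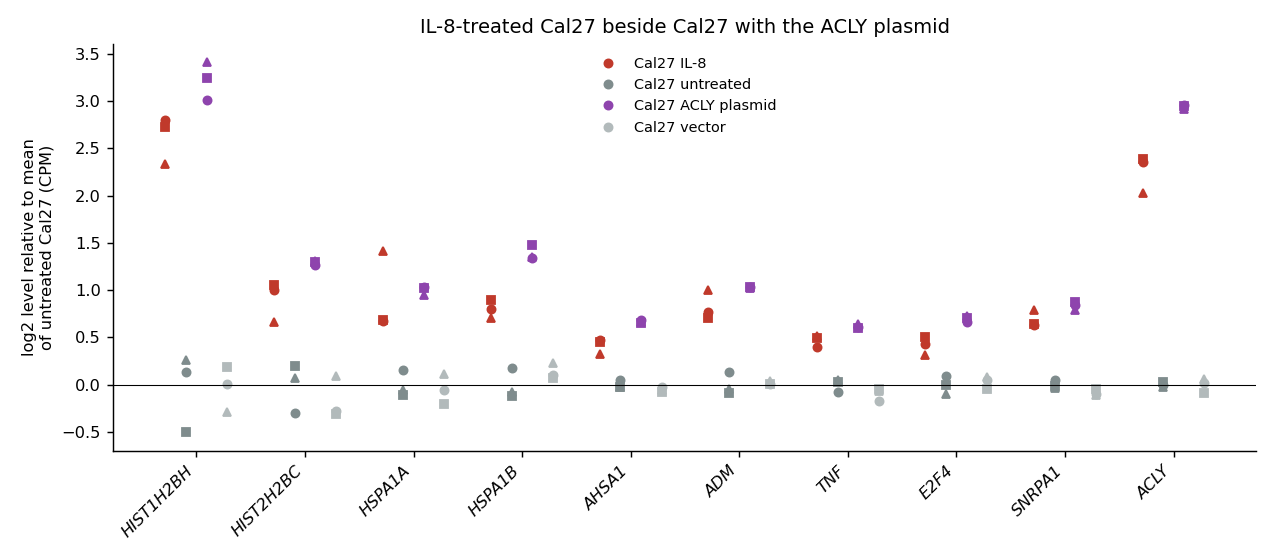
log2 level of the 9 genes and of ACLY relative to the mean of untreated Cal27 (0), one point per library (circle, square and triangle for replicates 1, 2 and 3), in Cal27 with IL-8, untreated Cal27, Cal27 with the ACLY plasmid and Cal27 with the vector. Cal27 with the plasmid (purple) lies above the vector (light grey) for all 10 genes, and the mean of Cal27 with IL-8 (red) lies between untreated Cal27 and Cal27 with the plasmid for each of them.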

How the data were processed

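RNA was extracted from the 3 lines and mRNA was taken up on poly-T beads, per the labels' protocols. The deposited values are raw read counts per gene on hg38, and among the tools in the submitters' processing notes are HISAT2 2.0.5 and featureCounts 1.5.0-p3. How strand and reads with several matches were handled is not given in the sources used here. Near-identical genes are therefore uncertain. Gene coordinates are those of the deposited table.

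Counts of the 18 libraries of the IL-8 experiment (6 groups, 12 residual degrees of freedom) were fitted together with edgeR 4.0.16 in R 4.3.3, with TMM factors, filterByExpr (minimum count 10, minimum total 15), a robust quasi-likelihood test and Benjamini-Hochberg adjustment at 0.05. ACLY, CXCR1, CXCR2 and CXCL8 were always kept. The plasmid comparison used a fit of all 36 libraries. Scripts were tested on simulated data. Alternatives were DESeq2 1.42.0, other filters, scalings and sets of libraries, a replicate block and leaving out each library.

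Genes were named by rank: those furthest outside the range, the 6 largest rises and 6 largest falls inside it among protein-coding genes, and members of the lists. Because only 9 genes were outside both HN4 groups, the range of the 2 untreated lines was added after seeing the data, and the genes named from it follow the same rank. The members and lists were chosen with earlier results of these data known. Genes of the Y chromosome are not named, members named only for fits without 1 library were chosen after their values were seen, and 1 gene that the rank names is not reported here.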

Additional observations from a re-analysis of the deposited data

Results flagged for a closer look

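The IL-8 response of Cal27 differed from that of HN6 in 5568 of 18399 genes (30.3%, edgeR interaction, adjusted p under 0.05), 3294 of them higher in Cal27 and 2274 lower. With library totals 5375 genes differed, 2580 higher and 2795 lower, and the median difference over all genes was -0.07 on the log2 scale, against 0.03 with TMM factors. Of the 67 genes listed by name, 59 had more than 3 reads in each of the 4 groups, and 57 of these differed, 39 with the higher log2 response in Cal27 and 18 with the lower, at adjusted p from 7.31e-13 to 0.0235, and all 57 were called in the same direction with library totals. The values below are the log2 response of Cal27 minus that of HN6.

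Among the genes above both HN4 groups the difference was 3.39 for HIST1H2BH, 1.098 for HIST2H2BC, 1.33 for HSPA1A, 1.00 for HSPA1B, 0.75 for AHSA1, 0.997 for ADM, 1.76 for TNF, 0.635 for E2F4 and 0.977 for SNRPA1. ACLY differed by 2.63 and CXCL8 by 1.16, since CXCL8 fell to 71.5 CPM in HN6 with IL-8, against 176.7 CPM in untreated HN6. Among the other chaperones it was 1.43 for HSPA8, 1.40 for HSPH1, 0.981 for DNAJA1, 1.095 for FKBP4, 0.641 for HSPA4 and 0.68 for DNAJB1. For ribosome biogenesis it was 1.13 for NCL, 0.72 for NOP58, 0.74 for DKC1, 0.82 for NOLC1, 1.15 for NOP16 and 1.12 for LYAR.

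Other genes with the higher response in Cal27 were ATAD3B (2.01), POLR3K (1.36), MIIP (1.045), HIST1H3G (2.83), HIST1H2BJ (1.58), SPRR1B (2.44), BRICD5 (1.825), CCND1 (1.13), CCNB1 (0.84), CDC20 (0.71), MCM3 (0.48), IER3 (1.09), IFI6 (1.34), MX1 (0.81), CDKN1A (1.53) and MDM2 (2.07). Genes with the lower response in Cal27 were CHAC1 (-4.17), SERF1B (-4.14), PLA2G4D (-1.997), PDLIM3 (-1.71), MUC16 (-1.61), SESN2 (-1.43), EGR1 (-1.41), STC1 (-1.28), PIK3IP1 (-1.27), HERPUD1 (-1.16), DLX4 (-1.12), MT-CO1 (-1.09), DZANK1 (-1.02), TP63 (-0.90), JUNB (-0.89), CARF (-0.88), ATXN1 (-0.83) and HSPA5 (-0.40). CDKN1A, MDM2, TP63, MUC16 and PDLIM3 lay between untreated Cal27 and untreated HN4 in treated Cal27, and SERF1B was not called outside them.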

How the results depend on the processing

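The 7247 genes called in Cal27 were 2587 in the 6 Cal27 libraries alone and 1820 at 2-fold or more. The 9 genes outside untreated Cal27 and both HN4 groups and the 214 outside both untreated lines were 94 and 518 with DESeq2, 370 and 684 without a filter on low counts, and 5 and 89 when at least 1.5-fold from each group was asked. They were 2 and 38 with the 12 Cal27 and HN4 libraries alone, and 1 (ADM) and 16 when both HN6 groups were also sources. With all 36 libraries they were 68 (Cal27 vector and both HN4 plasmid groups added) and 530 (vector added), and 0 and 0 with the ACLY plasmid added, an alternative chosen after seeing the data. A mean of at least 5 CPM gave 22 outside both HN4 groups. Without 1 library, the genes called ranged from 5482 to 7876, those outside both HN4 groups from 3 to 119, those outside both untreated lines from 79 to 612, those differing from HN6 from 4691 to 7763, the log2 change of ACLY from 2.27 to 2.38 and the share of HN4-only transcripts from 0.285 to 0.303. Among the genes chosen by rank or list, no called log2 change turned its sign in the settings run for them. The other called genes were not followed in this way. With library totals the genes with a different response in HN6 were 2580 higher and 2795 lower in Cal27, against 3294 and 2274. Both counts of genes outside a range depended on these settings, and the cause was not tested. Deviations of treated and untreated Cal27 libraries with the same replicate number correlated at -0.228, 0.205 and -0.097. Libraries with different numbers were not compared in this way, so whether the numbers pair the libraries was not settled. With a replicate block 7093 genes were called, 7 were outside both HN4 groups (TNF and HIST2H2BC were not), 188 outside both untreated lines and 5433 differed from HN6, and the log2 change of ACLY was 2.31.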

Other observations

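Lists not described above gave the following counts in Cal27 with IL-8, where 0.81% of all genes were above both untreated lines and 0.353% below. Of 31 proteasome genes 17 rose and 0 fell (12 rose and 2 fell without treated replicate 3), with PSMD3 and PSMD14 above both untreated lines (4 genes without replicate 3). Of 9 mitochondrial chaperones 7 rose and 0 fell, with GRPEL1 above both (3 without replicate 3), and of 14 chaperonin and prefoldin genes 6 rose and 0 fell, with CCT2 above both (2, 2 and 5 without treated replicates 1, 2 and 3, of which 3 were also above HN4 with IL-8 without replicate 3). Cytosolic ribosomal protein genes rose in 13 of 37 and fell in 0, but 26 and 20 rose without treated replicates 1 and 2, and 9 rose and 4 fell without replicate 3. Of 25 genes of cholesterol synthesis and uptake 12 rose and 5 fell, and of 22 genes of acetyl-CoA supply and fatty acid synthesis 4 rose and 7 fell (7 and 6 without treated replicate 1 or 2), with ACLY the one member outside the range. Without replicate 3, SCD was also outside it, and so were 2 genes of the cholesterol list.

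Of 28 mesenchymal and invasion genes 6 rose and 11 fell, with PLAU, the urokinase gene, below both untreated lines (2 members without replicate 3). NRF2 targets rose in 6 of 22 and fell in 11, glycolysis genes rose in 3 of 21 and fell in 7, and 0 of either list were outside the range. Without replicate 3, 14 glycolysis genes fell and 1 was outside it, as were 3 NRF2 targets. Of 24 genes of small extracellular vesicle formation and release 8 rose and 2 fell (12 and 4 without replicate 3), and 0 were outside it, against 1 without any 1 of the treated libraries. Of 27 immediate early genes 8 rose and 5 fell (8 and 8 without treated replicate 1), of 18 genes of the G1 phase 6 rose and 2 fell, and of 21 genes of endoplasmic reticulum folding 8 rose and 3 fell, with 2 outside the range and 4 without replicate 3. Of 12 genes of squamous differentiation that were tested 2 rose and 2 fell (3 and 1 without treated replicate 1, 2 and 1 without replicate 2). Over all genes tested 22.7% rose and 16.7% fell.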
